A study of Mus musculus with 24 samples.

Results

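Binding of Cdx2, the caudal-type homeobox protein that directs intestinal identity, was examined at 9 genes of proliferation control: the D-type cyclins Ccnd1, Ccnd2 and Ccnd3, the cyclin-dependent kinase (CDK) inhibitors Cdkn1a and Cdkn1b, and the Krüppel-like factors Klf3, Klf4, Klf5 and Klf6. Every ChIP peak was kept whose summit lay in the body of 1 of these genes or within 50 kb on either side of it (GENCODE vM21, mm10). This gave 210 of the peaks in the 12 deposited lists, which merged into 47 of the 61454 consensus regions. A consensus region is the union of peaks from any of the lists that overlap by at least 1 bp. The 9 genes were named among 21938 annotated protein-coding genes.

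The organoids came from the proximal and distal colon of 3 mice that were heterozygous for a Cre-inducible BrafV600E allele and for a tdTomato reporter, both of which all 4 groups shared. Per the study's methods the donors were female and 8 weeks old, the oncogenic allele stays silent until Cre is given, and these cultures were treated as normal organoids. Every culture had spent 4 months in WENR-plus, a medium that supplies the niche factors Wnt3a, EGF, Noggin and R-spondin 1. WENR-minus cultures were plated in that medium for 2 days and then spent 3 days without the 4 factors. With 3 Cdx2 libraries each, the groups were the 2 media at each of the 2 sites, called proximal or distal and WENR-plus or WENR-minus. The study reports the mouse of origin as the largest source of variation in Cdx2 binding. The labels give only replicate numbers, so the p-values below measure the spread between these libraries. The main tests did not pair libraries by mouse. Peak lists carry no expression, so neither the epithelial identity of the cultures nor the mRNA of these genes could be read from them. A lower peak can mean fewer bound cells or less binding per cell, and these cannot be told apart in bulk chromatin.

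D-type cyclins activate CDK4 and CDK6 in G1 phase and so start the phosphorylation of the retinoblastoma protein, which opens the way into S phase. The inhibitors p21, encoded by Cdkn1a, and p27, encoded by Cdkn1b, bind cyclin-CDK complexes and hold cells in G1. In the gut, Klf5 is known from the proliferating crypt base and Klf4 from the differentiated surface epithelium and goblet cells, while Klf3 is mainly a repressor and Klf6 a broadly expressed activator that can induce p21. Wnt and EGF signalling are known to keep crypt cells cycling.

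The sequences at the summits of 4 regions are shown because these regions led their gene by number of libraries and because the pair with a Cdx2 motif can be read against the pair without. Each is the plus strand of GRCm38 (mm10), 101 bases centred on the median summit, and capitals mark a match to TTTATGA, or to TTTATGG, or to TTTATTA, or to TTTATTG, on either strand.

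Klf5 -17.6 kb, chr14:99281073-99281173: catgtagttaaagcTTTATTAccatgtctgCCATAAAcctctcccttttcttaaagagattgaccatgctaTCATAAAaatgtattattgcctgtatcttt
Klf6 -48.0 kb, chr13:5813459-5813559: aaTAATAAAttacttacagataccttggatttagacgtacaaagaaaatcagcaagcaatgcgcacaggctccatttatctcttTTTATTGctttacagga
Ccnd2 +6.5 kb, chr6:127145643-127145743: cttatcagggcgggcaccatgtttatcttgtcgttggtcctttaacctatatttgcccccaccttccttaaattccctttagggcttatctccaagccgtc
Klf4 -47.8 kb, chr4:55580205-55580305: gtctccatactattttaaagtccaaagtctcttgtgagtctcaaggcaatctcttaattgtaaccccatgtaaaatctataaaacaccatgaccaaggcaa

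Regions are named by their gene and by the distance of the median summit from the annotated gene start, with minus for upstream. The Klf5 -17.6 kb sequence held 3 motifs, Klf6 -48.0 kb held 2, and the other two held 0. An absent match says only that these letters are not in this window.

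The 12 lists held 5608 to 42192 peaks on chromosomes 1 to 19, X and Y, and 7 to 33 of these lay near the 9 genes. For replicates 1, 2 and 3, proximal lists held 32033, 42192 and 13592 peaks in WENR-plus and 27921, 15940 and 11409 in WENR-minus. Distal lists held 7378, 13371 and 5608 peaks in WENR-plus and 21040, 7895 and 7904 in WENR-minus. By call alone, group and list length cannot be told apart. Fold enrichment was deposited relative to each library's own input, so libraries were compared by call and by the fold percentile. This percentile is the rank of a region's fold within its own list from 0 to 100. It does not level the groups. At the 2079 regions called in all 12 libraries, its median was 91.3 in proximal WENR-plus and 86.7 in proximal WENR-minus organoids. In distal organoids it was 76.4 in WENR-plus and 82.1 in WENR-minus. The motif stood within 50 bp of 60.4% of all consensus summits and in 11.2% of windows placed 1000 bp away from peak summits, which describes the factor that was precipitated.

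Cdx2 regions were unevenly spread over the 9 genes. The 4 Klf genes took 34 regions and 174 peaks, the 3 cyclins 7 regions and 21 peaks, and the 2 inhibitors 6 regions and 15 peaks. Per 100 kb of window this was 7.39 regions for the Klf genes, 2.79 for the inhibitors and 1.62 for the cyclins. Pooled likewise, the whole genome held 2.25 per 100 kb, and the median over single protein-coding genes was 1.87. Klf5 (11 regions) and Klf6 (10 regions) had a higher density than 99.2% and 99.1% of protein-coding genes. Density counts every region alike, and 5 of the Klf5 regions and 1 of the Klf6 regions were called in 1 library. Klf4 followed with 7 regions and a density above that of 95.8% of genes. Cdkn1b with 5 regions and Klf3 with 6 regions exceeded 88.5% and 87.4% of genes. Ccnd2, with 3 regions, was above 59.5%. Ccnd3 (3 regions), Cdkn1a (1 region) and Ccnd1 (1 region) were below the median, at 40.9%, 27.3% and 27.2%. All 9 genes had at least 1 region, as did 84.5% of protein-coding genes.

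**Figure D1:**
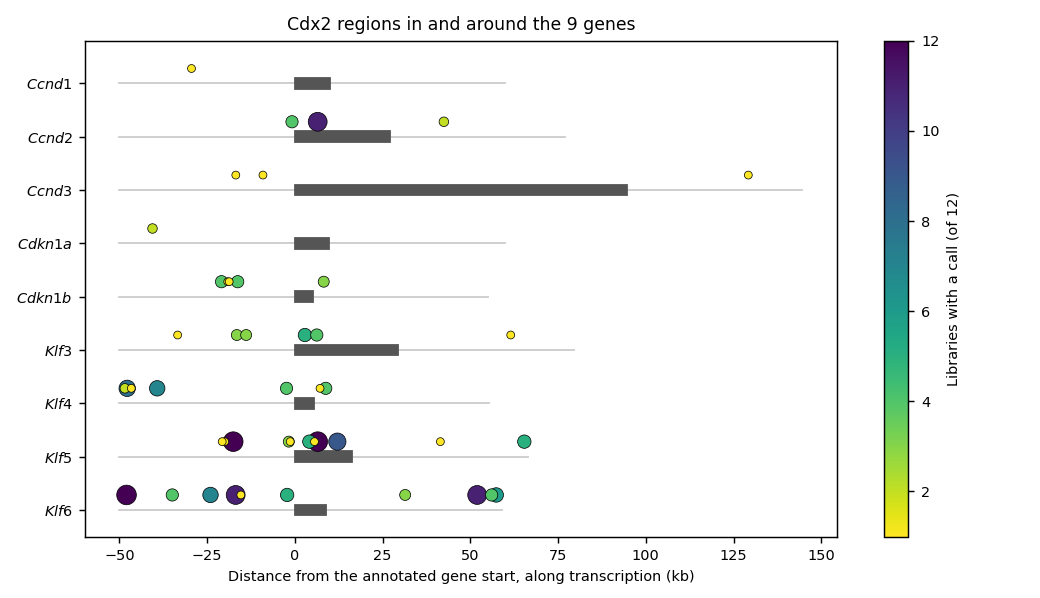
Positions of the 47 Cdx2 regions, as distance in kb from the annotated gene start along transcription, for the 9 genes. Dark bars are gene bodies and grey lines the windows of 50 kb to either side, while the size and shade of a circle give the number of the 12 libraries with a call. The largest circles stand at Klf5, Klf6 and Ccnd2, and Ccnd1, Ccnd3 and Cdkn1a carry small ones alone.

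How steadily a region was called also differed by gene. Of the 47 regions, 3 (6.38%) were called in all 12 libraries, against 3.38% of all consensus regions, and 16 (34.0%) were called in 1 library, against 42.2%. The 3 constant regions belonged to 2 of the 9 genes, Klf5 with 2 and Klf6 with 1, where 12.9% of protein-coding genes had such a region within 50 kb. At least 1 peak was listed in 12 libraries near Klf4, Klf5 and Klf6, in 11 near Ccnd2, in 8 near Cdkn1b and Klf3, in 2 near Ccnd3 and Cdkn1a, and in 1 near Ccnd1. The longest list, proximal WENR-plus replicate 2, held 33 of the peaks, and the list of distal WENR-plus replicate 1 held 7.

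Most regions lay outside the genes. Of the 47, 28 were upstream, 12 downstream and 7 inside a member gene, and 6 lay within 3 kb of the gene's own annotated start. By distance to any annotated start, 15 regions (31.9%) were within 3 kb of one, against 16.4% of all consensus regions. The remainder were 13 in introns, 3 in exons and 16 between genes. For 38 regions the nearest protein-coding start was that of the member itself. The other 9 regions were nearest to a neighbour, and the windows held 14 other protein-coding genes, none of them near Klf3, Klf4 or Klf6.

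Ccnd1 encodes the cyclin D1 that is a classical marker of mitogen and Wnt signalling. Its window held 1 region, Ccnd1 -29.7 kb (chr7:144969526-144969835, intergenic). It was called in proximal WENR-minus replicate 1 at percentile 20.6 and a fold of 4.03, and in no other library. No peak was listed within the gene or at its start in any medium.

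Ccnd2, encoding cyclin D2, carried the one steady region among the cyclins and inhibitors. Ccnd2 +6.5 kb (chr6:127145382-127145905) lay in an intron, 0.995 kb from the start of a shorter annotated Ccnd2 transcript, and was called in 11 libraries. Its percentiles were 81.6, 68.0 and 41.7 in proximal WENR-plus replicates 1, 2 and 3. Without niche factors the proximal values were 38.1 and 35.4, and replicate 3 had no call. The proximal libraries with niche factors were thus all above those without. In distal WENR-plus organoids the values were 22.2, 85.7 and 85.0. In distal WENR-minus organoids they were 7.68, 29.3 and 37.7, so that the distal media overlapped through WENR-plus replicate 1. With a missing call set to percentile 0, the mean was 39.4 points higher in WENR-plus than in WENR-minus (two-sided exact permutation of medium within site, p = 0.035). After Benjamini-Hochberg adjustment over the 35518 regions called in at least 2 libraries p was 1, and no region passed. Among the 31 members in that test this was the 1 region with p under 0.05 and WENR-plus higher, where 1.26% of all such regions qualified. The reverse direction held 0 of the 31, against 0.859%. Lists cut to equal length gave a difference of 23.1 points (exact permutation p = 0.4), and without any 1 replicate p ran from 0.0556, the smallest that 2 against 2 libraries per site allow, to 0.167.

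A second region, Ccnd2 -0.8 kb (chr6:127152880-127153176), lay upstream of the annotated start, in an intron of the noncoding gene 9330179D12Rik. It was called in all 3 proximal WENR-plus libraries, at percentiles 70.1, 83.0 and 54.7. One proximal WENR-minus library, replicate 2, had it at 25.1, and no distal library did. The difference with missing calls at 0 was 30.4 points (exact permutation p = 0.1, the smallest possible with calls at 1 site alone).

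Ccnd3, encoding cyclin D3, has the longest of the 9 windows and held 3 regions, each called once and each in a proximal WENR-plus library. Ccnd3 -9.1 kb stood at percentile 37.4 in replicate 2, Ccnd3 -16.8 kb at 26.1 in replicate 1, and Ccnd3 +129.2 kb at 8.42 in replicate 2. The first pair lay in the neighbouring gene Taf8 and the third in Usp49, and for none was Ccnd3 the nearest coding start.

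Cdkn1a, encoding p21, had 1 region, Cdkn1a -40.8 kb (chr17:29049956-29050311), between genes and nearest to the start of Srsf3. It was called at percentile 33.9 in proximal WENR-minus replicate 1 and at 2.86 in distal WENR-plus replicate 2. The remaining 10 libraries listed no peak within 50 kb of the gene.

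Cdkn1b, encoding p27, had 5 regions and none in more than 4 libraries. Cdkn1b -16.3 kb (chr6:134903913-134904269) was listed at 61.1 in proximal WENR-minus replicate 1, at 52.6 in distal WENR-plus replicate 2, and at 36.6 and 53.2 in distal WENR-minus replicates 1 and 3. Cdkn1b -20.9 kb (chr6:134899163-134899621) was listed in proximal libraries alone, at 36.2, 70.4 and 5.87 in WENR-plus and at 23.1 in WENR-minus replicate 3. Both lay closer to the start of Gpr19 than to that of Cdkn1b. The media shared calls at each, and neither difference passed the test (exact permutation p = 0.35 and p = 0.2). At Cdkn1b -20.9 kb, called at 1 site alone, p could not go below 0.1.

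Klf3 had 6 regions, all nearest to its own start and none in more than 5 libraries. Klf3 +2.9 kb (chr5:64805980-64806518), in an intron of Klf3, was called in 5 libraries with percentiles of 1.36 to 36.2, low in every list. Klf3 +6.2 kb (chr5:64809116-64810186), in an intron too, stood at 57.0, 32.9 and 71.2 in the proximal WENR-plus libraries and at 28.3 in proximal WENR-minus replicate 3. No distal library had it. The difference between the media there was 22.1 points with missing calls at 0 (exact permutation p = 0.1). With calls at 1 site alone, 0.1 is the smallest p this test allows.

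Klf4 had 7 regions, of which the leading pair lay far upstream in the noncoding gene Gm12511. Klf4 -47.8 kb (chr4:55579861-55580640) was called in 8 libraries, and its highest values came from distal WENR-minus organoids, at 94.5, 89.5 and 30.0. The distal WENR-plus values were 57.0 and 53.9 with no call in replicate 1, which lie within the range of the other medium. In proximal organoids it was listed at 36.2 in 1 WENR-plus library and at 52.8 and 11.6 in 2 WENR-minus libraries. Over both sites WENR-plus minus WENR-minus was -21.9 points with missing calls at 0 (exact permutation p = 0.22), which did not exceed the spread of the libraries. Replicate 1 weighed on this value, which was -5.02 points without it (exact permutation p = 0.833) and -35.9 without replicate 3 (exact permutation p = 0.222). The neighbouring Klf4 -39.2 kb (chr4:55571375-55571983) had the opposite distribution over the sites. It was called in all 6 proximal libraries, at 79.3, 37.4 and 51.1 in WENR-plus and at 77.9, 10.8 and 74.5 in WENR-minus, and in 1 of 6 distal libraries, WENR-plus replicate 3, at 17.1. Closest to the gene's own start was Klf4 -2.4 kb, called in 4 libraries at percentiles of 7.63 to 52.8.

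Klf5 carried the strongest Cdx2 region of the set. Klf5 -17.6 kb (chr14:99280444-99281753, intergenic, no other coding start nearer) was called in all 12 libraries with folds of 11.3 to 45.4. The percentiles were 99.9, 99.7 and 99.9 in proximal WENR-plus, 99.8, 99.5 and 99.5 in proximal WENR-minus, 92.8, 99.8 and 99.7 in distal WENR-plus, and 99.7, 99.6 and 99.6 in distal WENR-minus organoids. It therefore stood in the top 1% of 11 lists, the exception being distal WENR-plus replicate 1. Of the 2079 regions called in all 12 libraries, 28 had a higher median percentile. The difference of WENR-plus minus WENR-minus was -0.998 points (exact permutation p = 0.98, adjusted p = 0.996 over 2079 regions), and without replicate 1 WENR-plus was higher by 0.221 points. At a percentile this close to 100 little room was left for a difference between media to appear. The deposited folds were 39.3, 35.1 and 45.4 in proximal WENR-plus and 41.9, 31.5 and 32.6 in proximal WENR-minus organoids. In distal organoids they were 11.3, 30.9 and 30.3 with the niche factors and 25.0, 22.5 and 25.9 without. All 6 proximal folds were above all 6 distal ones, but each was made against its own input, and the rank within the list did not separate the sites. In 11 of its 12 peaks the motif stood within 50 bp of that library's own summit.

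The second constant region, Klf5 +6.5 kb (chr14:99304539-99305701), lay in an intron of the main Klf5 transcript and in an exon of a shorter annotated one. Its percentiles were 98.2, 96.5 and 95.4 in proximal WENR-plus and 96.4, 96.6 and 94.4 in proximal WENR-minus organoids, which overlapped. In distal WENR-plus organoids they were 91.1, 93.1 and 96.0, and in distal WENR-minus organoids 97.5, 96.5 and 96.7. All 3 distal libraries without niche factors were above the 3 with them, by means of 96.9 ± 0.549 and 93.4 ± 2.47 (SD, n = 3). The distal medians over all regions called in all 12 libraries ran the same way, at 82.1 without and 76.4 with niche factors. Over both sites the difference was -1.32 points (exact permutation p = 0.295, adjusted p = 0.853), and -3.74 in lists of equal length (exact permutation p = 0.305). Its median summit held no motif, and 4 of its 14 peaks had one within 50 bp of their own summit.

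Klf5 +12.1 kb (chr14:99310593-99310979), in an intron of Klf5, was weaker and called in 9 libraries. The proximal values were 72.2, 86.0 and 23.7 in WENR-plus and 20.6, 35.4 and 23.1 in WENR-minus organoids, where the third WENR-plus library fell among the others. Distal WENR-plus replicates 1 and 2 had 64.2 and 66.9, and of distal WENR-minus libraries replicate 1 had 36.6. With missing calls at 0 WENR-plus was higher by 32.9 points, at an exact permutation p of 0.05, which is on the threshold and not under it. The difference ran from 12.3 to 49.2 points over the alternatives. Klf5 +65.4 kb (chr14:99363821-99364579) was called in 5 of 6 proximal and no distal library, at 83.4, 73.8 and 75.4 in WENR-plus and at 63.1 and 48.1 in WENR-minus. This was the 1 member of its kind among 47 (2.13%), beside 2.17% of all consensus regions called in at least 5 proximal and no distal library. That pattern was chosen after the values had been seen.

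Klf6 had 10 regions, the outermost at Klf6 -48.0 kb and Klf6 +57.4 kb, and none of them inside the gene. Klf6 -48.0 kb (chr13:5812975-5813839, intergenic) was called in all 12 libraries. Proximal WENR-plus organoids had it at 73.8, 87.3 and 64.1 and proximal WENR-minus organoids at 79.7, 81.0 and 78.6. Distal organoids had it at 75.5, 60.4 and 61.0 with niche factors and at 89.1, 50.3 and 62.2 without. The media overlapped at each site, and the difference of -3.11 points did not exceed the spread (exact permutation p = 0.685, adjusted p = 0.982). The difference ran from -14.5 points in lists of equal length to 0.198 without replicate 1. In lists of equal length 2 member regions were called in every library, and a call lost there counted as 0. The median percentile of Klf6 -48.0 kb, 74.6, was among the lower ones for regions called everywhere, above 16.6% of them.

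Klf6 +52.0 kb (chr13:5912998-5914386), in an intron of the noncoding gene Gm47507, was called in 11 libraries. Its percentiles were 80.5, 90.2 and 57.4 in proximal WENR-plus and 90.7, 76.2 and 82.9 in proximal WENR-minus organoids. Distal WENR-plus replicates 2 and 3 had 80.2 and 27.0 with no call in replicate 1, and the distal WENR-minus libraries had 86.2, 81.6 and 77.7. With the missing call at 0, WENR-plus minus WENR-minus was -26.6 points (exact permutation p = 0.11), and in lists of equal length -38.0 points (exact permutation p = 0.01, unadjusted). With summits within 200 bp joined it was -13.7 points (exact permutation p = 0.47). Without replicate 1 it was -15.9 points (exact permutation p = 0.444) and without replicate 2 -43.1 points (exact permutation p = 0.0556). Klf6 -16.9 kb (chr13:5844280-5845913, intergenic) was called in 11 libraries as well, at percentiles of 0.502 to 80.6, and its media did not differ beyond the spread (exact permutation p = 0.645).

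A further 3 Klf6 regions with uneven calls were singled out after their values were seen. Klf6 +56.1 kb (chr13:5917334-5917654) was called in all 3 proximal WENR-minus libraries, at 87.2, 67.0 and 77.0, and in proximal WENR-plus replicate 3 at 15.4. No distal library listed it, and the difference with missing calls at 0 was -36.0 points (exact permutation p = 0.1). Klf6 -34.9 kb stood the other way, at 16.2, 60.6 and 54.7 in proximal WENR-plus and at 12.3 in WENR-minus replicate 1 (exact permutation p = 0.1). For Klf6 +56.1 kb and Klf6 -34.9 kb, 0.1 was the smallest p that calls at 1 site alone allow. Both were picked for their uneven calls, so this p adds no support. Klf6 -2.2 kb (chr13:5859060-5859668), the region closest to the Klf6 start, was called in 4 of 6 distal libraries, 3 of them WENR-minus at 72.4, 45.6 and 50.2, and in 1 of 6 proximal libraries at 16.2. It was the 1 member of 47 with at least 4 distal and at most 1 proximal call, a pattern of 0.43% of all consensus regions.

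**Figure D2:**
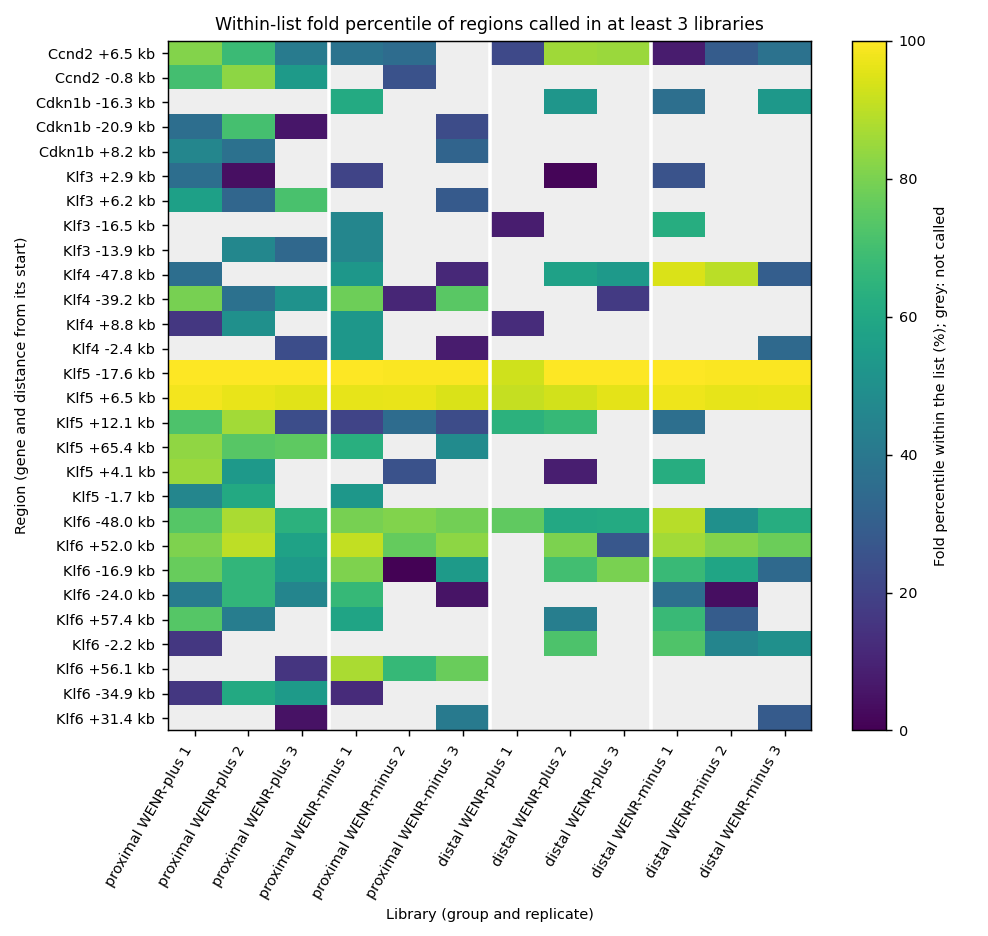
Fold percentile (colour, 0 to 100) within each list for the member regions called in at least 3 libraries, with the 12 libraries in columns by group and replicate, and grey for no call. The Klf5 -17.6 kb and Klf5 +6.5 kb rows are bright in every column, from 91.1 upwards, while most rows of Cdkn1b, Klf3 and Klf4 are broken by grey.

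The question the media address is whether Cdx2 occupies these genes differently once the niche factors are withdrawn. No member region was called in all 3 libraries of a medium and none of the other at either site. The counts were 0 of 47 for WENR-plus and WENR-minus alone in proximal organoids, beside 0.74% and 0.119% of all consensus regions. In distal organoids they were 0 of 47 as well, beside 0.129% for WENR-plus and 0.41% for WENR-minus. A count of 0 of 47 allows a share of up to 6.38%, so a rate such as that of the whole series could not have been told from 0. Leaving out a replicate number moved these counts, since 2 against 2 libraries is a looser rule. Without replicate 3, proximal WENR-plus had 5 such regions, and without replicate 2, distal WENR-minus had 3. No share over all consensus regions was taken for that rule, so these counts cannot be set beside the shares above.

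Ranks gave a like picture. Of the 7 members called in all 6 proximal libraries, 0 had media that did not overlap, beside 9.44% of all such regions with WENR-plus higher and 2.75% with WENR-minus higher. Of the 4 called in all 6 distal libraries, 1 did not overlap with WENR-minus higher, Klf5 +6.5 kb, and 0 with WENR-plus higher, beside 8.38% and 3.44%. With 1 replicate number left out, the proximal count with WENR-plus higher was 2 to 3. The distal count with WENR-plus higher was 3 without replicate 1. Media fail to overlap more easily with 2 against 2 libraries per site. No share over all regions was taken there, so these counts cannot be set beside the shares above. For 3 against 3 libraries the smallest possible exact p is 0.1. At the 3 regions called in all 12 libraries 0 had an exact permutation p under 0.05 in either direction, while 4.81% of the 2079 regions had one with WENR-plus higher and 3.17% with WENR-minus higher. Counts of 0 among 7, 4 or 3 regions could not have been told from the shares beside them. After adjustment none of the 2079 passed, and the lowest adjusted p of this permutation test was 0.400.

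**Figure D3:**
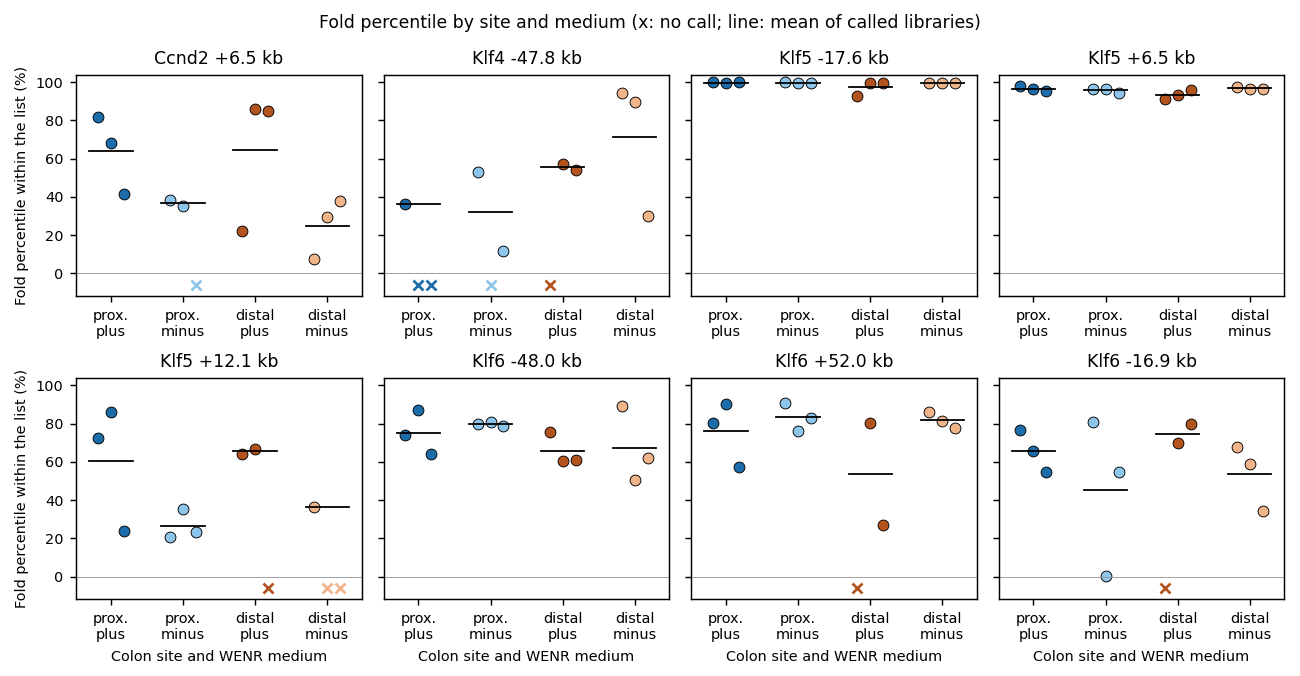
Fold percentile within the list at the 8 member regions called in at least 8 libraries, by colon site and medium. Points are the 3 replicates of a group, lines the mean of the called libraries and crosses libraries without a call. Ccnd2 +6.5 kb is higher in WENR-plus except for 1 distal library at 22.2, while Klf5 -17.6 kb stays at the top in both media.

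**Figure D4:**
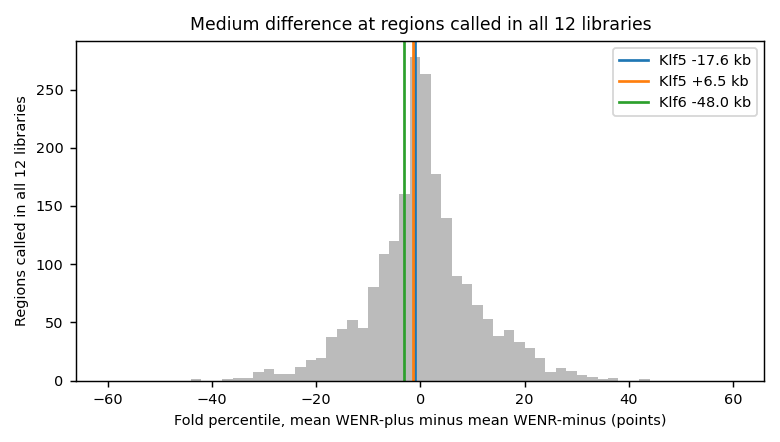
Mean fold percentile in WENR-plus minus WENR-minus (points, horizontal) for the 2079 regions called in all 12 libraries, as a histogram of region numbers. Coloured lines mark the 3 member regions, at -0.998, -1.32 and -3.11 points, near the middle of the distribution, whose median was 0.107.

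The share of each list taken by the 9 genes was compared too, since lists differed in length. Proximal WENR-plus lists gave 0.874, 0.782 and 1.62 peaks near the genes per 1000 listed, and proximal WENR-minus lists 0.860, 0.690 and 1.49. Their means were 1.09 ± 0.459 and 1.01 ± 0.422 (SD, n = 3), a difference of 0.0784 (two-sided exact permutation p = 0.6). In distal lists the shares were 0.949, 1.12 and 1.43 with and 0.998, 1.39 and 1.64 without niche factors. The distal means were 1.17 ± 0.242 and 1.35 ± 0.326, a difference of -0.180 (exact permutation p = 0.5). Over both sites the difference was -0.0506 (exact permutation p = 0.82). At both sites the media overlapped, and replicate 3 had the highest share in each of the 4 groups. The share need not be free of list length. Replicate 3 lists were also the shortest of their proximal groups, at 13592 peaks with and 11409 without niche factors. With 5608 peaks the same held for distal WENR-plus. The distal WENR-minus list of replicate 3 had 7904 peaks, close to the 7895 of replicate 2. Among the other replicates the longer list did not always have the lower share. Whether length or replicate set the share was not tested. Read by replicate number, WENR-plus minus WENR-minus was 0.0145, 0.0921 and 0.129 in proximal organoids for replicates 1, 2 and 3. In distal organoids it was -0.0493, -0.271 and -0.218, so the sign was opposite at the sites for 3 of 3 numbers. With the numbers taken as pairs the exact permutation p was 0.25 at each site. Any 3 differences of 1 sign give this p, the smallest that 3 pairs allow.

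**Figure D5:**
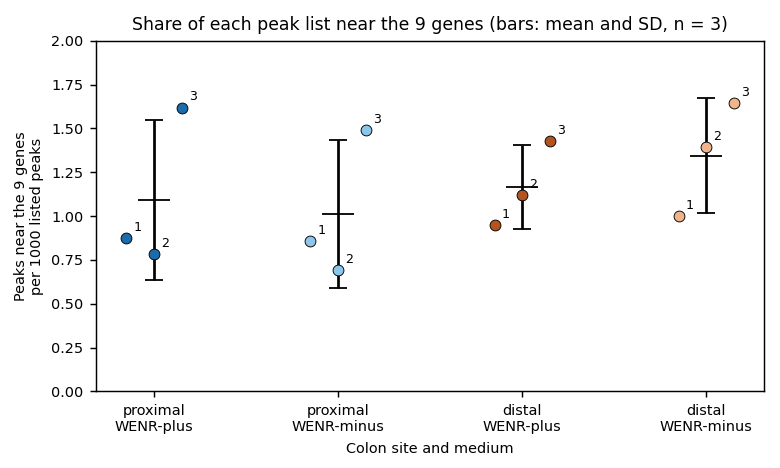
Peaks near the 9 genes per 1000 listed peaks (vertical), for the 3 replicates of each site and medium, with the mean and SD (n = 3). Replicate numbers stand beside the points, replicate 3 being highest in each group, and the 4 groups overlap between 0.998 and 1.43.

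Between the sites, averaged over the media of a replicate number, the share was 1.05 ± 0.440 in proximal and 1.26 ± 0.281 in distal cultures (SD, n = 3). The difference was -0.203 (exact permutation p = 0.6). No member was called in all 6 libraries of a site and none of the other, with 0 of 47 in both directions beside 1.04% of all consensus regions for proximal and 0.0553% for distal.

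The motif was less frequent at the members' summits than over the whole series, which was described without a test. It stood within 50 bp of the median summit in 15 of 47 member regions (31.9%, 95% Wilson interval 20.4 to 46.2%, counting error only), beside 60.4% of all consensus regions. Counted by peaks, 81 of 210 (38.6%) had it near their own summit, beside 58.0% of all peaks. Among member regions called in 1 library it was present in 6 of 16, in 2 to 4 libraries in 3 of 16, in 5 to 9 libraries in 3 of 9, and in 10 to 12 libraries in 3 of 6. The same classes over all regions had 51.7%, 63.8%, 70.1% and 71.6%. By position it was found in 3 of 15 member regions near a start, 1 of 3 in exons, 7 of 13 in introns and 4 of 16 between genes. Over all regions the shares of those classes ran from 54.7% near a start to 62.9% between genes. Within 100 bp it was present in 30 of the 47 (63.8%), beside 80.2% of all regions. Single regions differed widely. Klf5 +12.1 kb had it near the summit in 8 of its 9 peaks, Klf6 -48.0 kb in 10 of 12 and Klf6 +52.0 kb in 8 of 13, while Klf4 -47.8 kb and Klf4 -39.2 kb had it in 0 of 8 and 0 of 7. At Ccnd2 +6.5 kb 6 of 11 peaks had the motif near their own summit, although the median summit did not.

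Other genes of the same functions were read from 2 lists. Beside them, 84.5% of all protein-coding genes had a region within 50 kb and 12.9% had one called in all 12 libraries. The median over all protein-coding genes was 1.87 regions per 100 kb. Of 20 further genes of G1/S control, 17 had a Cdx2 region within 50 kb, with a median of 2.51 regions per 100 kb, and 0 had a region called in all 12 libraries. The 3 without a region were Ccne1, Cdk4 and Cdkn2d, named after their values were seen. Of the 13 other Klf genes, 11 had a region, with a median of 0.970 per 100 kb. In this list 2 had a region called in all 12 libraries, Klf9, a factor induced by steroid and thyroid hormones, and Klf10, a repressor induced by TGF-beta. Klf9 +35.2 kb (chr19:23175989-23177079) had a median percentile of 77.9 and differed by 9.25 points between the media (exact permutation p = 0.685). Klf10 +29.1 kb (chr15:38271108-38272251) had a median percentile of 93.7 and differed by -2.39 points (exact permutation p = 0.45).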

How the data were processed

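Chromatin was profiled by ChIPmentation with a Cdx2 antibody in 12 libraries, and 12 input libraries were used here only through the authors' peak calls. Per the study's methods, with versions from the submitters' processing notes, the authors trimmed reads (Trimmomatic 0.39), aligned them to mm10 (Bowtie2 2.4.5), removed duplicates (SAMtools 1.13) and called narrow peaks per library against its input with MACS2 2.2.7.1 at a q-value of 0.01. The software list of the study gives other versions of Bowtie2 and SAMtools. Fold enrichment, as the authors deposited it, is the ratio of summit pileup to local input background. The deposited −log10 p-value and −log10 q-value of each peak were used for filters and alternative ranks. The lists give no read totals, and the totals that the study states were not used here. A missing call is not proof of absence.

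Peaks from the autosomes (1 to 19), X and Y were merged where they shared 1 bp or more. A library's value at a region was the highest fold percentile of its peaks there. Gene positions came from GENCODE vM21 on GRCm38, and 0 peaks passed a chromosome end. Media were compared by two-sided exact permutation, 3 against 3 libraries within a site (smallest p 0.1) or within both sites together (400 labelings, smallest p 0.005). Benjamini-Hochberg adjustment was over all regions tested. For a region called at 1 site alone, p cannot go below 0.1 in either test. Python 3.11.15 with numpy 2.4.6, pandas 2.3.3 and scipy 1.17.1 was used, and the tests were tested on simulated data. Named were all 9 genes, for each up to 2 regions called in the most libraries (ties by median percentile), any region called in 1 medium or at 1 site alone, and genes of the 2 further lists with a region in all 12 libraries. Klf4 -2.4 kb, Klf5 +12.1 kb, Klf5 +65.4 kb, Klf6 -16.9 kb and the third Ccnd3 region were named after their values were seen. Sequences were read from GRCm38. The members, lists and rules were chosen with earlier results of these data known. Alternatives were a −log10 q of at least 5, equal list lengths (5608 peaks with the highest −log10 p), windows of 10 and 100 kb, joining of summits within 200 bp, ranks of the −log10 p, missing calls at 0, each replicate left out, a replicate block and a wider motif window.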

Additional observations from a re-analysis of the deposited data

Results flagged for a closer look

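The share of listed peaks near the 9 genes was singled out because the medium went with opposite signs at the 2 sites for every replicate number, higher in WENR-plus in 3 of 3 proximal and lower in 3 of 3 distal cultures. The medium difference was 0.258 peaks per 1000 larger in proximal than in distal organoids. The item was flagged for these signs, which fix the exact permutation p over replicate numbers at 0.1, the smallest that 3 against 3 allow. That p therefore adds no support. The comparison by number takes same-numbered libraries as pairs, which the correlations did not establish for the distal libraries. In lists of equal length the proximal difference was -0.178 and the distal one 0.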

How the results depend on the processing

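No share of a peak list had an exact permutation p under 0.05 under any setting, but some changed sign. Within a site and between the sites, 3 against 3 cannot go below 0.1, so those tests could not pass. With a replicate left out, the test over both sites could not pass either. The proximal difference between media was -0.178 peaks per 1000 in lists of equal length and -0.350 with windows of 100 kb. With windows of 10 kb the distal difference was 0.0112 and that over both sites 0.0473. The number of member regions was 15 in lists of equal length, 16 with 10 kb and 90 with 100 kb, as fewer peaks or narrower windows hold fewer regions. Those called in every library numbered 1 with 10 kb, 8 with 100 kb, and 3 to 5 with 1 replicate number left out.

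Regions of 1 medium alone stayed at 0 in distal WENR-plus under each alternative run. In proximal WENR-plus they numbered 1 at a −log10 q of at least 5 and 1 to 5 with a replicate left out. In proximal WENR-minus there was 1 at that limit, 1 in lists of equal length, and 0 to 1 with a replicate left out. In distal WENR-minus there was 1 with 100 kb and 0 to 3 with a replicate left out. Proximal-only regions numbered 0 to 1 with a replicate left out. Media that did not overlap, with a replicate left out, numbered 2 to 3 (WENR-plus higher) and 0 to 2 (WENR-minus higher) in proximal and 0 to 3 (WENR-plus higher) in distal organoids. Lists of equal length gave 1 proximal region with WENR-minus higher and 0 distal ones, and the −log10 q limit 0 distal ones. Missing calls at 0 gave 1 region with exact permutation p under 0.05 and WENR-plus higher, Ccnd2 +6.5 kb. With a replicate left out 2 against 2 libraries per site cannot reach 0.05. The counts with a replicate left out follow this looser 2 against 2 comparison, and no share over all regions was taken for them.

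Single regions changed sign around small values. Klf3 +2.9 kb, at -0.748 points, was at 1.53 with the −log10 q limit, 0.648 with ranks of −log10 p and -2.52 to 1.40 with a replicate left out. Klf4 -39.2 kb, at 3.62, was at -2.95 with that limit, -5.18 in lists of equal length and -1.24 to 7.03 with a replicate left out. So treated, Klf5 -17.6 kb ran from -1.61 to 0.221, Klf6 -48.0 kb from -8.77 to 0.198 and Klf6 -16.9 kb from -6.47 to 30.6 points. The cause was not tested. The motif share was 53.3% of 15 regions in lists of equal length, beside 66.0% of all regions there, and 63.8% within 100 bp.

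Same-numbered libraries of the 2 media correlated in their deviations at -0.0606 to 0.368 over the 6 pairs, 5 of them over 0.1, so the numbers were not taken as pairs over both sites. The 3 proximal pairs, at 0.136 to 0.368, each passed that limit. As pairs the proximal share had an exact permutation p of 0.25, the smallest 3 pairs allow, which any 3 differences of 1 sign give. With a replicate block (64 labelings, smallest p 0.0312) the difference in share over both sites was -0.0506 (exact permutation p = 0.5), Ccnd2 +6.5 kb had an exact permutation p of 0.0312 (adjusted p = 0.997), and no call changed.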
